A study of Mus musculus with 13 samples.

Results

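Chromatin immunoprecipitation and sequencing (ChIP-seq) of a gonadotrope cell line was read at 9 genes that belong to the other cell types of the pituitary or to its progenitors: Gh, Prl, Tshb, Pomc, Pou1f1, Tbx19, Pax7, Neurod1 and Sox2. A peak was assigned to a gene when the deposited annotation named that gene as the nearest and placed the peak within 100 kb of its start. This gave 171 of the 538751 peaks in 12 lists, and 475101 of all peaks lay within 100 kb of the start of some gene. Of the 9 genes, 6 had at least 1 peak. Gh, Tbx19 and Sox2 were never the nearest gene of a peak within 100 kb.

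The cells were LβT2, an established mouse line of the gonadotrope type. They were transduced with a lentiviral cassette for doxycycline-inducible FLAG-tagged mouse FoxL2 and constitutive GFP. Every group, the vehicle group included, carried the cassette and was induced, so FOXL2 below means the FLAG-tagged protein that doxycycline induced. After a recovery of 24 h the cells received doxycycline for 48 h and were held for 2 h in 2% serum. They were then exposed for 1 h to 1 nM activin A or to its vehicle, and fixed with 1% formaldehyde. SMAD2/3, FLAG-FOXL2 and H3K27ac (acetyl-lysine 27 of histone H3, found at active regulatory DNA) were each precipitated from 2 vehicle and 2 activin samples. Each sample was a pool of 3 plates, and the labels do not say whether the duplicates were separate cultures, so the spread between them may be technical. One Protein-A control sample has no values in what follows and was not analysed here.

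The anterior pituitary holds several hormone cell types that arise from common progenitors. Growth hormone (Gh), prolactin (Prl) and the beta subunit of thyroid-stimulating hormone (Tshb) are made by somatotropes, lactotropes and thyrotropes, which depend on the POU-homeodomain factor PIT1, the product of Pou1f1. Pomc encodes the precursor of ACTH and melanocyte-stimulating hormone in corticotropes and melanotropes. Its expression depends on the T-box factor TPIT (Tbx19), with the basic helix-loop-helix factor NEUROD1 acting in corticotropes and the paired-box factor PAX7 opening melanotrope enhancers. SOX2 is the HMG-box factor of pituitary stem cells. Gonadotropes, the type that LβT2 cells model, make the gonadotropin subunits Lhb, Fshb and Cga, and activin acts on them through SMAD2 and SMAD3.

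The promoters of 4 genes are shown as examples. FOXL2, the target with most peaks at the members, had none within 1 kb of the start of any member in any library, so these 4 do not stand apart in this. Each is the 250 bases upstream of the start from RefSeq, build GRCm38.p6, written 5′ to 3′ in the direction of the gene. In Prl and Tshb, capitals mark the forkhead core TAAACA and the PIT1 motif TATNCAT on either strand. In Pomc and Neurod1, capitals mark TAAACA and the E-box CANNTG, to which NEUROD1 and other basic helix-loop-helix factors bind.
Prl (chr13:27057320-27057569, plus strand): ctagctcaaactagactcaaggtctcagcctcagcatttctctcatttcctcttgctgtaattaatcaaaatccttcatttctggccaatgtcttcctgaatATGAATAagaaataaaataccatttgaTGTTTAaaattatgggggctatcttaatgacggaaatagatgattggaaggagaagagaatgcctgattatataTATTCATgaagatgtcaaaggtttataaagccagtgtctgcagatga
Tshb (chr3:102782715-102782964, minus strand): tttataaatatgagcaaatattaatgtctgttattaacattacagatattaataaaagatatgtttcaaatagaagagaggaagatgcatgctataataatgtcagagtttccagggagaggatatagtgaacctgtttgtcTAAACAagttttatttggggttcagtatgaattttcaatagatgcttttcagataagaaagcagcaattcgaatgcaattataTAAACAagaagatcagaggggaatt
Pomc (chr12:3954695-3954944, plus strand): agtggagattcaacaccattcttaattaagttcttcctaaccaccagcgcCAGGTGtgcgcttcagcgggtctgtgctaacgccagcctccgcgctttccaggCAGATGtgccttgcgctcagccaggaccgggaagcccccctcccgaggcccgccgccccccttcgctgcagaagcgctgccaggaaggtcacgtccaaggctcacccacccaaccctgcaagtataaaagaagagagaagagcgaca
Neurod1 (chr2:79456637-79456886, minus strand): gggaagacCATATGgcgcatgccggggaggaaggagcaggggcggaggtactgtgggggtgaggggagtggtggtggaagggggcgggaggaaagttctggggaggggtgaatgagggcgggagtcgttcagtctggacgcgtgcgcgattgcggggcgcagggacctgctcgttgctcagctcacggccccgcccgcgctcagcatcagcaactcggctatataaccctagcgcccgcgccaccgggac

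Prl had 1 TAAACA match, beginning at position −121, and 2 TATNCAT matches at −148 and −47, counted back from the start. Tshb had 2 TAAACA matches at −108 and −25 and no TATNCAT match. Pomc had CANNTG at −200 and −147, and Neurod1 had it at −242, and neither had TAAACA. Over the 27025 promoters of the table and on both strands, 12.03% held TAAACA, 8.16% TATNCAT and 66.0% CANNTG. The short SMAD-binding motif AGAC, which 83.0% of promoters held, was present in these 4. The other motifs searched were GGCGC (32.1% of promoters), GGCCG (30.3%) and TCACAC (12.2%), and TCACAC, a T-box motif, was in none of the 8 member promoters in the table. A match is a run of letters and not a measured site. The table held no entry for Gh.

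At the starts themselves, no member had a FOXL2 peak within 1 kb in both libraries of either treatment, where 8.01% of 17493 protein-coding genes did in vehicle and 8.31% in activin. No member had a SMAD2/3 peak there either (0.0514% and 0.589% of genes). H3K27ac lay within 1 kb of the start in both vehicle libraries for 1 member, Neurod1, against 45.9% of genes, and for 0 members in both activin libraries, against 45.3%. The Neurod1 start was acetylated in vehicle 1, vehicle 2 and activin 1. The starts of Gh, Prl, Tshb, Pou1f1, Pomc, Tbx19, Pax7 and Sox2 had no H3K27ac peak within 1 kb, or within 5 kb, in any of the 4 libraries. The table gives no start for Gh, so both ends of the gene (chr11:106300261-106303703) were used. For contrast, the starts of the gonadotrope genes Lhb, Cga and Gnrhr were acetylated in all 4 libraries, and that of Fshb in 0. Of these reference genes, Lhb, Cga, Gnrhr and Nr5a1 were the nearest gene of a SMAD2/3 peak in both activin libraries, as were 7.45% of 21887 protein-coding genes, while Fshb and the 9 members were not.

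The number of peaks differed widely between the members. Neurod1 led with 72 FOXL2 and 21 H3K27ac peaks summed over the 4 libraries of each target. Prl had 45 FOXL2 and 4 H3K27ac peaks, and Pomc had 17 and 4. Pax7 had 4 FOXL2 peaks and 1 H3K27ac peak, Tshb had 2 FOXL2 peaks and Pou1f1 had 1. As a nearest gene, 4 of the 9 members (Prl, Pomc, Pax7 and Neurod1) were named by FOXL2 in all 4 libraries, where 37.5% of 21887 protein-coding genes were, and 2 of 9 (Pomc and Neurod1) by H3K27ac, where 38.6% were.

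**Figure D1:**
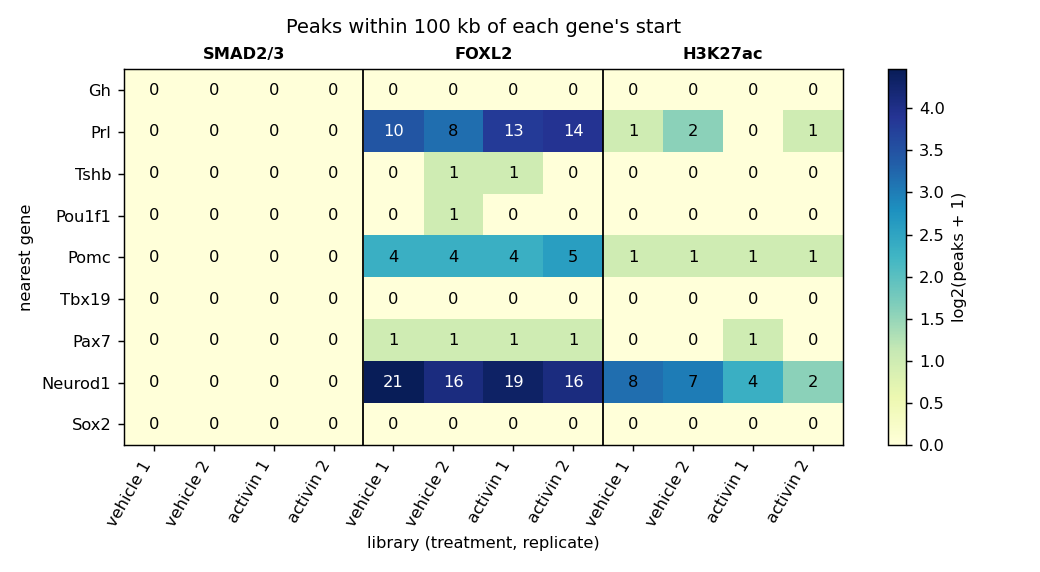
Number of peaks whose nearest gene is the member (rows) and that lie within 100 kb of its start, in each of the 12 libraries (columns). Colour is log2 of the number plus 1, and each cell prints the number. FOXL2 peaks concentrate at Neurod1, Prl and Pomc, H3K27ac at Neurod1, and every SMAD2/3 cell is 0.

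SMAD2/3 had no peak at any member in any library. Over all protein-coding genes, 11.1% were the nearest gene of a SMAD2/3 peak within 100 kb in some library and 7.45% in both activin libraries. The 4 SMAD2/3 lists held 605 and 144 peaks in vehicle and 7784 and 5970 in activin. Of the 7521 SMAD2/3 regions within 100 kb of a start, 54.1% had peaks in both activin libraries and in neither vehicle library. The number of reads behind a list is unknown, so a longer list can come from deeper sequencing as well as from more bound sites.

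FOXL2 peaks of the members numbered 36 and 31 in vehicle against 38 and 36 in activin. The means were 33.5 ± 3.54 (SD, n = 2) and 37 ± 1.41 (SD, n = 2), and the exact two-sided permutation test gave p = 0.667, and the groups met at 36 peaks. The difference of 3.5 peaks was no larger than the SD of the vehicle libraries. With 2 libraries a group, this test cannot give a p under 0.3333. The lists themselves held 86401 and 83834 FOXL2 peaks in vehicle and 97701 and 94006 in activin. H3K27ac peaks of the members numbered 10 and 10 in vehicle and 6 and 4 in activin, in lists of 41150 and 40398 and of 41763 and 38995 peaks. Their means were 10 ± 0 and 5 ± 1.41 (SD, n = 2 each), the groups did not overlap, and the exact permutation p was 0.3333, the smallest possible. Most of the difference of −5 came from 1 gene, Neurod1, at −4.5 peaks. Prl had −1, Pomc 0, and Pax7 had 1 peak in activin 1 only. For single protein-coding genes named by H3K27ac, numbers lay apart in this direction in 9.52% of 10706. No such share is given for sums over 9 genes. The direction of the members' difference did not hold under other rules: above a −log10 q cutoff of 5, activin had 0.5 more peaks on average, and with peaks assigned by location, whatever the nearest gene, it had 3.5 more.

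To compare the same places across libraries, peaks of the 4 libraries of a target that shared at least 1 bp were merged into regions. The strength of a peak is given as its percentile rank by −log10 q in its own list, 100 for the strongest, since fold enrichments of separately called lists are not on one scale. The members had 44 FOXL2 regions: 22 at Neurod1, 14 at Prl, 5 at Pomc and 1 each at Pax7, Tshb and Pou1f1. Of these, 24 had a peak in all 4 libraries, where 47.1% of 107234 regions near genes did. There were 2 activin-only regions (8.72% of all regions) and 2 vehicle-only regions (3.25%). Among the 24 shared regions, 9 ranked higher in both activin than in both vehicle libraries, against 29.7% of 50526, and 8 ranked lower, against 28.2%. The members' shares lay near those of the whole list in both directions. Apart from the strongest region of each member, the single regions described from here on were picked after their values were seen. Ranks moved by a median of 2.20 points from vehicle to activin at the 24 regions and by 0.0772 points at all shared regions.

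**Figure D2:**
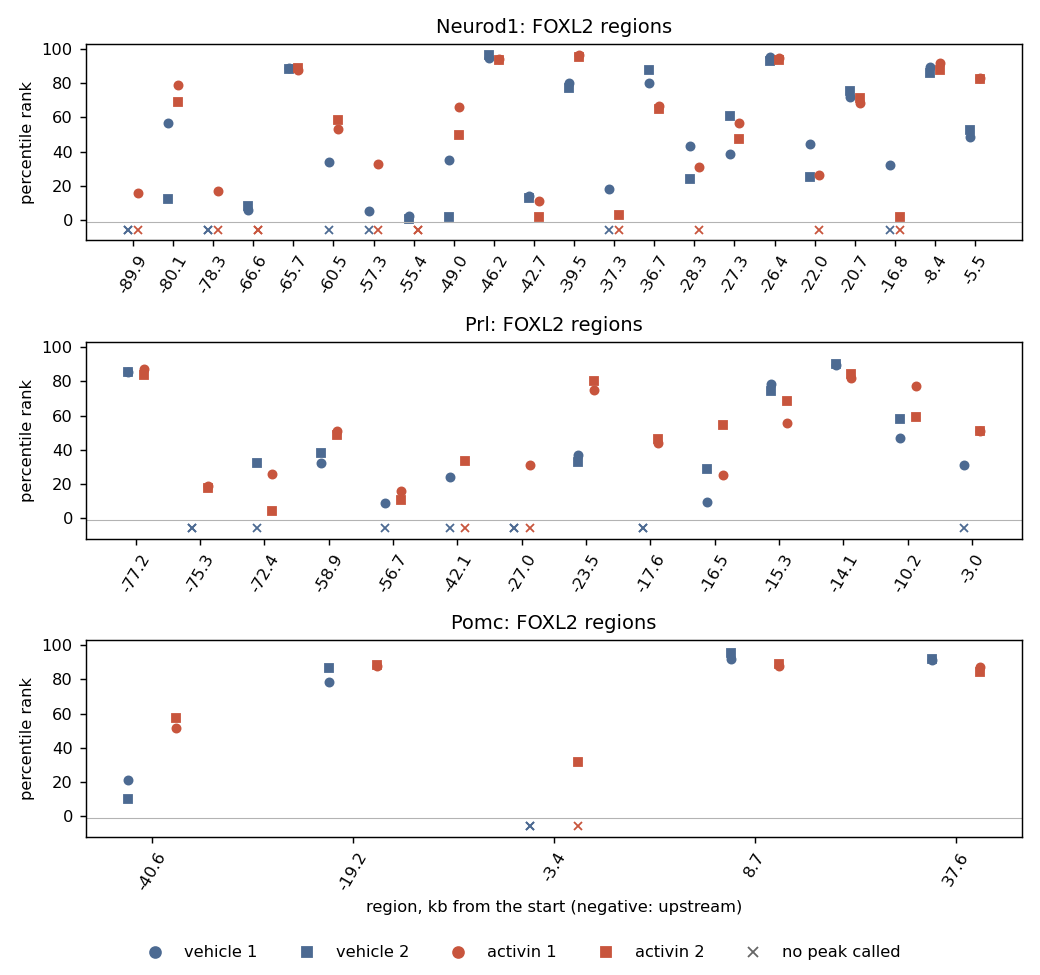
Percentile rank by −log10 q of every FOXL2 region of Neurod1, Prl and Pomc, ordered by distance from the start in kb (negative is upstream). Circles and squares are replicates 1 and 2, blue is vehicle, red is activin, and a cross below the line is a library with no peak. Among strong regions, some overlap between treatments and others rank lower or higher in both activin libraries. The Neurod1 regions at −5.47 and −39.5 kb and the Prl region at −23.5 kb rank higher in both activin libraries.

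Of the hormone genes, Prl had the most FOXL2 peaks. It was named by 10 and 8 peaks in vehicle and by 13 and 14 in activin, so the 2 activin libraries lay above the 2 vehicle libraries. Of 11729 protein-coding genes named by FOXL2, 16.8% had numbers that lay apart in this direction. The activin lists were also longer, with 83334 and 80983 FOXL2 peaks within 100 kb of a start against 74131 and 73099 in vehicle. The means were 9 ± 1.41 and 13.5 ± 0.707 (SD, n = 2 each), with an exact permutation p of 0.3333, the smallest possible. All 14 FOXL2 regions lay upstream of Prl (chr13, plus strand, start at 27057570, ENSMUSG00000021342), in intergenic sequence. The nearest was at −3.01 kb and the farthest at −77.2 kb, so none reached the promoter printed above.

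The strongest Prl region by mean rank lay at −14.1 kb (chr13:27043260-27043716). Its ranks were 89.4 and 89.9 in vehicle and 81.9 and 84.3 in activin, and its deposited folds were 25.2, 22.03, 17.8 and 18.6. It was somewhat lower in both activin libraries, as was its neighbour at −15.3 kb, with ranks of 78.2 and 74.6 in vehicle and 55.9 and 68.4 in activin. The region at −77.2 kb ranked 85.3 in both vehicle libraries and 87.2 and 83.7 in activin, so its groups overlapped.

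The region with the biggest upward shift among all 24 shared member regions was also at Prl. At −23.5 kb (chr13:27033748-27034355) FOXL2 ranked 36.8 and 33.0 in vehicle and 74.9 and 80.0 in activin, with folds of 6.90 and 5.96 against 14.9 and 16.9. Its shift of 42.6 points exceeded that of 97.9% of all shared FOXL2 regions.
Both activin-only FOXL2 regions of the members were at Prl. The one at −17.6 kb ranked 43.7 and 46.0, and the one at −75.3 kb ranked 19.0 and 17.6, below the middle of each list. H3K27ac at Prl was sparse and weak: 3 regions, none in all 4 libraries. The best of them, at −60.2 kb (chr13:26996889-26997492), was present in vehicle only and ranked 3.08 and 31.5. No FOXL2 region of Prl overlapped an H3K27ac region of both libraries of either treatment. Prl is followed in the genome by the related placental genes Prl3d1, Prl3d2 and Prl3d3, and reads of near-identical copies could be split by the authors' alignment. The part of such reads in the peaks at Prl was not tested.

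Pomc (chr12, plus strand, start at 3954945, ENSMUSG00000020660) was named by 4, 4, 4 and 5 FOXL2 peaks in vehicle 1, vehicle 2, activin 1 and activin 2. Of its 5 regions, 4 were present in all 4 libraries, and their groups moved in both directions. The strongest lay at 8.71 kb beyond the start (chr12:3963458-3963882), in the last exon of the neighbouring gene Efr3b (ENSMUSG00000020658). It ranked 92.03 and 95.4 in vehicle and 88.1 and 89.2 in activin, with folds of 29.9, 31.9, 23.4 and 23.1.

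A Pomc region in an intron of Efr3b at 37.6 kb ranked 91.4 and 91.8 in vehicle and 87.4 and 84.6 in activin. Both regions inside Efr3b were thus slightly lower in activin, while the intergenic region at −19.2 kb was higher, with 78.5 and 86.5 in vehicle and 87.8 and 88.3 in activin. The weakest shared region, at −40.6 kb, ranked 21.1 and 10.2 in vehicle and 51.8 and 57.4 in activin. Its shift of 39.0 points exceeded that of 97.0% of all shared regions.
The single H3K27ac region at Pomc lay within Efr3b at 26.7 kb (chr12:3981001-3982319). It ranked 50.2 and 46.7 in vehicle and 57.7 and 61.1 in activin, higher in both activin libraries, as were 26.5% of the 22999 H3K27ac regions shared by 4 libraries. Its shift of 11.0 points exceeded that of 82.9% of them. No FOXL2 region of Pomc overlapped H3K27ac.

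Tshb (ENSMUSG00000027857) and Gh had almost no signal of their own. Tshb was named by 1 FOXL2 peak in vehicle 2 (rank 25.5) and 1 in activin 1 (rank 40.0), both at 10.6 kb from its start (chr3:102771924-102772196) in an exon of another gene. Within 100 kb of Tshb, whatever the nearest gene, FOXL2 gave 5 and 7 peaks in vehicle and 6 and 5 in activin. The nearest of these regions to be shared by all 4 libraries was at −2.83 kb and ranked 16.5 and 31.7 in vehicle and 58.3 and 38.5 in activin. Strong H3K27ac in that window lay downstream, nearest to Tspan2os and to a gene model, with ranks of 97.3, 98.3, 95.8 and 97.7 at 35.9 kb. Within 100 kb of either end of Gh, the only H3K27ac region was nearest to Ccdc47 (chr11:106215542-106217581), with ranks of 89.4, 90.7, 88.0 and 88.9.

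Among the regulators, Pou1f1 (ENSMUSG00000004842), the PIT1 gene, was named by a single FOXL2 peak at −17.5 kb in vehicle 2, which ranked 0.826 and so was among the weakest of its list. Tbx19, which encodes the Pomc activator TPIT, was named by no peak. Pax7 (ENSMUSG00000028736) had 1 FOXL2 region, at −35.1 kb (chr4:139867967-139868237), which every FOXL2 library held. Its ranks were 26.7 and 42.5 in vehicle and 27.1 and 49.0 in activin. Its groups overlapped. Pax7 also had 1 weak H3K27ac peak, in an intron at 74.6 kb, in activin 1 only, with a rank of 11.8.
The progenitor gene Sox2 stood apart from the other members. No peak of any target in any library was centred within 100 kb of its start, whatever the nearest gene, and 7.18% of 17493 protein-coding genes had such an empty window.

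Neurod1 (chr2, minus strand, RefSeq start at 79456636, ENSMUSG00000034701) carried most of the members' signal. FOXL2 named it 21 and 16 times in vehicle and 19 and 16 times in activin, with means of 18.5 ± 3.54 and 17.5 ± 2.12 (SD, n = 2 each) and an exact permutation p of 1. All 22 of its FOXL2 regions lay upstream in intergenic sequence, between −5.47 and −89.9 kb, and 12 had a peak in all 4 libraries. Of these 12, 4 ranked higher and 4 lower in both activin libraries, against 29.7% and 28.2% of all shared FOXL2 regions.

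The strongest, at −46.2 kb (chr2:79502693-79503141), ranked 94.7 and 96.8 in vehicle and 94.3 and 93.4 in activin, with folds of 23.0, 22.8, 21.1 and 18.6. It was slightly lower in both activin libraries, by 1.89 points. The next 4 Neurod1 regions by mean rank are described in turn.
The region at −26.45 kb (chr2:79482761-79483669) ranked 95.5 and 93.3 in vehicle and 94.7 and 93.4 in activin, and that at −8.35 kb ranked 89.6 and 85.8 against 92.1 and 87.6. In both, the groups overlapped. The region at −65.7 kb ranked 89.2 and 88.6 against 87.8 and 88.8 and overlapped too.

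The region at −39.5 kb (chr2:79495877-79496641) differed from these. It ranked 79.9 and 77.5 in vehicle and 96.3 and 95.5 in activin, and its folds were 12.03 and 9.50 against 23.9 and 21.0. In the activin libraries it was the highest ranked of all Neurod1 regions. Its shift of 17.2 points exceeded that of 84.4% of all shared FOXL2 regions.
The region closest to the gene, at −5.47 kb (chr2:79462014-79462433), ranked 48.7 and 52.8 in vehicle and 83.1 and 82.6 in activin, with folds of 5.16 and 5.18 against 10.8 and 10.0. Its shift of 32.1 points exceeded that of 94.7% of all shared regions. In the other direction, the region at −36.7 kb (chr2:79493252-79493673) ranked 80.3 and 88.0 in vehicle and 66.9 and 65.0 in activin, and 9.12% of shared regions shifted further down. The biggest upward shifts at Neurod1, of 39.4 points each, were those of 2 regions whose vehicle libraries differed widely. At −49.0 kb the ranks were 35.2 and 1.96 in vehicle and 66.3 and 49.7 in activin, and at −80.1 kb they were 57.0 and 12.3 against 78.8 and 69.2. Regions that ranked higher and lower were thus mixed along the same intergenic stretch.

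H3K27ac peaks that named Neurod1 were fewer in activin. There were 8 and 7 in vehicle and 4 and 2 in activin, with means of 7.5 ± 0.707 and 3 ± 1.41 (SD, n = 2 each) and an exact permutation p of 0.3333, the smallest possible. Numbers lay apart in this direction for 9.52% of 10706 protein-coding genes named by H3K27ac. At a −log10 q of 5 or more, the numbers were 2 and 2 in vehicle and 2 and 1 in activin. The peaks covered 10743 and 11104 bp in vehicle and 8072 and 6021 bp in activin, and covered length lay apart in this direction for 29.7% of those genes.

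Of the 13 H3K27ac regions of the members, 8 were at Neurod1. None of the 13 was activin-only (5.82% of 48805 regions near genes were), 3 were vehicle-only (6.31%) and 3 were in all 4 libraries (47.1%). The strongest, at −27.8 kb (chr2:79481887-79486462), ranked 96.7 and 97.8 in vehicle and 88.9 and 85.1 in activin. Its neighbour at −21.3 kb (chr2:79476405-79480134) ranked 90.3 and 92.5 in vehicle and 61.9 and 55.5 in activin.
Both were lower in both activin libraries, as were 30.5% of all shared H3K27ac regions. The shift at −21.3 kb was −32.7 points, and 2.22% of all shared regions shifted further down. At −27.8 kb it was −10.2 points, and 20.6% shifted further down. Over the Neurod1 start, the peak in intron 1 of the gene (chr2:79456110-79456673) ranked 27.8 and 19.4 in vehicle, 3.48 in activin 1 and was absent in activin 2. The vehicle-only regions at −39.9 and −55.4 kb were weak, with ranks of 14.0 and 14.9 and of 8.80 and 49.8.

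The FOXL2 regions of Neurod1 and its acetylated stretches coincided in part. Of the 24 FOXL2 regions of members shared by all libraries, 5 overlapped a merged H3K27ac region with peaks in both vehicle libraries, against 22.4% of all shared FOXL2 regions. For both activin libraries it was 3, against 21.8%. All 5 were at Neurod1, at −20.7, −26.45, −27.3, −39.5 and −42.7 kb. With single peaks in place of merged regions, 4 of the 24 were touched by a peak of each vehicle library (20.3% of all) and 3 by a peak of each activin library (19.2%). The region at −39.5 kb was touched by the vehicle 2 peak alone, and that at −42.7 kb by both vehicle peaks and the activin 1 peak. None of the 24 overlapped a SMAD2/3 region of both activin libraries, which 6.16% of all shared FOXL2 regions did.

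The nearest-gene rule drops whatever lies on the far side of the Neurod1 body, where the peaks are nearest to Cerkl and to the gene model Gm26755. With every peak centred within 100 kb of the RefSeq start counted, H3K27ac covered 50908 and 51867 bp in vehicle and 38409 and 34137 bp in activin. Covered length was lower in both activin libraries for 35.8% of 13174 protein-coding genes with H3K27ac in their window. The number of H3K27ac peaks was 14 and 15 in vehicle and 13 and 13 in activin, and no such share is given for it. The log2 ratio of covered length, activin to vehicle, was −0.50, against a median of −0.06 over 13174 protein-coding genes with H3K27ac in their window, and 11.96% of these genes had a lower ratio. Neighbouring genes share windows, so these genes are not independent.
The H3K27ac lists as wholes covered 50441997 and 49198762 bp in vehicle and 51799850 and 43629844 bp in activin. The list of activin 2 covered the least, and the part of depth in these lengths was not tested.

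**Figure D3:**
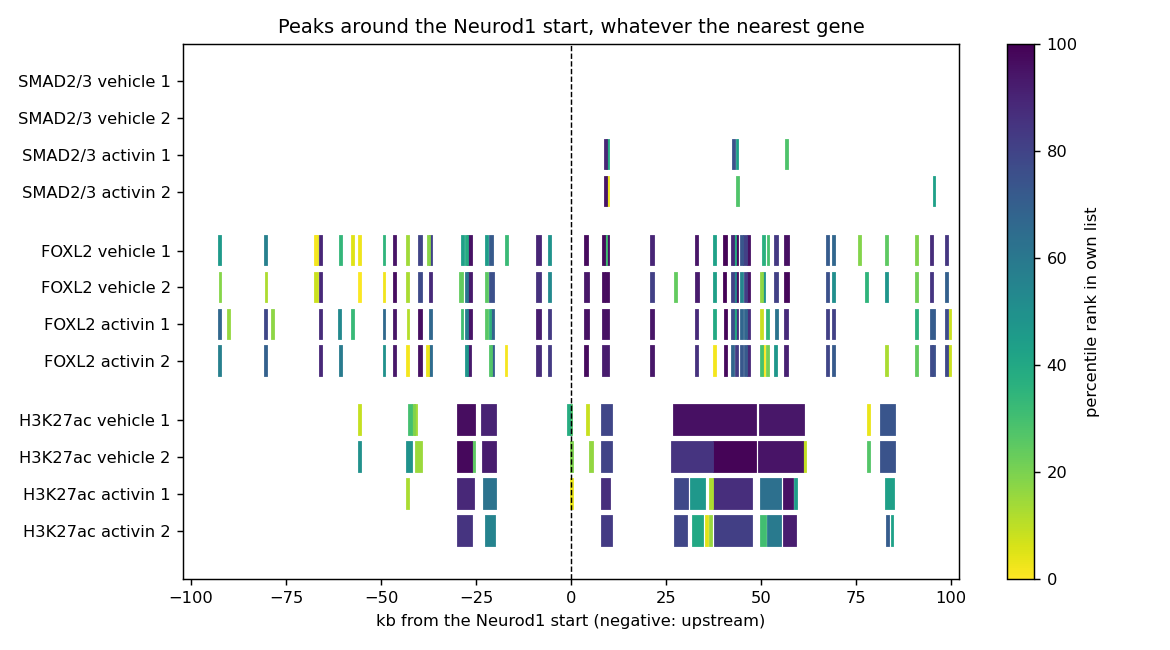
Peaks of the 12 libraries around the Neurod1 start (dashed line), whatever their nearest gene, by distance in kb (negative is upstream). Each bar is a peak, drawn with a minimum width so that narrow peaks can be seen, and colour is its percentile rank in its own list. SMAD2/3 peaks appear only in the activin rows and only downstream, and the H3K27ac regions at −27.5 and −21.6 kb are darker in vehicle.

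Within that window, 6 H3K27ac regions were shared by the 4 libraries, of which 4 ranked lower and 1 higher in both activin libraries. Over all shared H3K27ac regions, 30.5% ranked lower and 26.5% higher. The 6 are neighbours at 1 locus. Distances here run from the RefSeq start to the middle of the merged region and differ by fractions of a kb from those above. The broad region at 37.7 kb ranked 96.1 and 99.1 in vehicle and 87.0 and 81.6 in activin. The region that was higher lay at 9.47 kb and ranked 79.0 and 79.7 in vehicle and 86.9 and 82.6 in activin. FOXL2 had 31 shared regions in the same window, upstream and downstream together. Of these, 9 ranked higher and 15 lower in both activin libraries, against 29.7% and 28.2% of all shared FOXL2 regions.

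**Figure D4:**
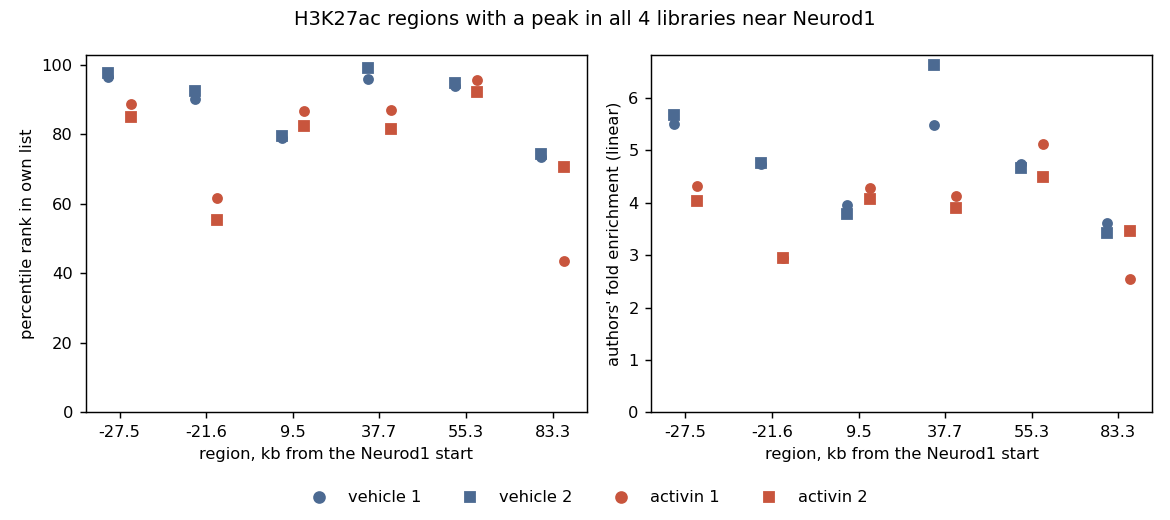
The 6 H3K27ac regions with a peak in all 4 libraries within 100 kb of the Neurod1 start, by percentile rank (left) and by the authors' fold enrichment (right, linear axis from 0). Circles and squares are replicates 1 and 2, blue is vehicle and red is activin. The regions at −27.5, −21.6, 37.7 and 83.3 kb rank lower in both activin libraries, and that at 9.47 kb ranks higher.

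SMAD2/3 peaks lay in the window of Neurod1 after activin, at sites that the annotation gave to other genes. There, 3 regions had a peak in both activin libraries and in neither vehicle library, and a single one at 9.25 kb was strong in both. That one (chr2:79447173-79447595), in an intron of Cerkl and nearest to Gm26755, ranked 89.6 and 94.8, with folds of 7.91 and 10.6. The 2 others, at 9.75 and 43.8 kb, ranked 38.8 and 2.49, and 44.0 and 27.6. All 3 overlapped merged FOXL2 and H3K27ac regions of both activin libraries. The regions at 9.25 and 9.75 kb lay within the one stretch of shared H3K27ac in the window that ranked higher in activin. The region at 43.8 kb lay within the broad H3K27ac region at 37.7 kb, which ranked lower in both activin libraries. That broad region ranked 96.1 and 99.1 in vehicle and 87.0 and 81.6 in activin. One of the strongest FOXL2 regions of the window lay at 9.17 kb, with ranks of 97.6 and 97.1 in vehicle and 95.4 and 92.3 in activin.
The only other member with SMAD2/3 of both activin libraries in its window was Pomc, at 96.3 kb (chr12:4051041-4051431), nearest to Efr3b. That region ranked 83.8 and 63.8, with folds of 9.40 and 6.81, and also overlapped FOXL2 and H3K27ac of both activin libraries. By this measure 2 of 9 members had SMAD2/3 of both activin libraries within 100 kb, against 30.8% of 17493 protein-coding genes. Over all 4509 SMAD2/3 regions of both activin libraries, 81.3% overlapped FOXL2 and 78.3% overlapped H3K27ac, so coincidence of the 3 was common in the whole list.

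Across the members, acetylated length within 100 kb did not move one way. Of the 7 members with H3K27ac in the window in all 4 libraries, covered length was lower in both activin libraries for 3, Gh, Pou1f1 and Neurod1, against 35.8% of 13174 genes. It was higher for 2, Pax7 and Pomc, against 23.6%. In the window of Pou1f1 the covered length was 3022 and 3455 bp in vehicle and 2133 and 2075 bp in activin. This signal was nearest to the gene model Gm23659, at −88.2 kb from Pou1f1. At Gh it was 2010 and 2040 bp against 1904 and 1834 bp.
In the window of Pomc the length was 3594 and 3687 bp in vehicle and 6701 and 4401 bp in activin. In the window of Pax7 it was 2567 and 2568 bp against 4345 and 2705 bp. For Tshb and Tbx19 the treatments overlapped.

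**Figure D5:**
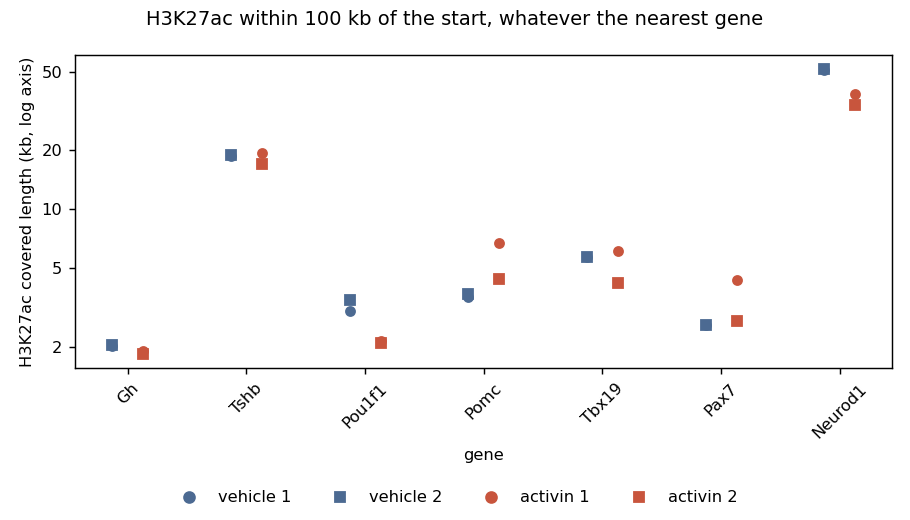
H3K27ac covered length in kb (log axis) within 100 kb of the start of the 7 members with such peaks in all 4 libraries. Circles and squares are replicates 1 and 2, blue is vehicle and red is activin. Neurod1, Pou1f1 and Gh are lower in both activin libraries, and Pomc and Pax7 are higher.

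A list of 33 further genes of the same lineages was read by the same rule. FOXL2 named 19 of them in all 4 libraries, against 37.5% of protein-coding genes, and SMAD2/3 named 7 in both activin libraries, against 7.45% of protein-coding genes. By lineage, SMAD2/3 named 1 of 12 genes of the PIT1 lineages, 1 of 9 corticotrope and melanotrope genes and 5 of 12 progenitor and early pituitary genes. Ghrhr, the receptor for growth hormone-releasing hormone on somatotropes, had the strongest region, at 12.6 kb from its start (chr6:55388620-55389184). It was present in all 4 SMAD2/3 libraries and ranked 98.8 and 98.1 in activin. Hesx1, a homeobox repressor of early pituitary development, had an activin-only region at 5.89 kb (chr14:27005867-27006631) that ranked 96.8 and 97.6.
Mean ranks of further genes were 72.7 (Pitx1), 72.5 (Isl1), 51.1 (Nr3c1, the glucocorticoid receptor) and 47.2 (Hes1). Pitx1 and Isl1 encode homeodomain factors that gonadotropes also use, so these are not marks of another cell type. Of 20 genes of the list with a start in the table, 7 had an acetylated start in both vehicle libraries, against 45.9% of genes, and 8 in both activin libraries, against 45.3%.

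Over the 12 libraries together, genes with peak numbers most like those of Neurod1 included Scfd1 and Gm25470, at Euclidean distances of 0.527 and 0.779 on log2(number + 1). Scfd1 had 18, 20, 21 and 19 FOXL2 peaks and 7, 6, 4 and 2 H3K27ac peaks, in the order vehicle 1, vehicle 2, activin 1 and activin 2, and no SMAD2/3 peak.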

How the data were processed

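The 12 ChIP-seq libraries gave 1 peak list and 1 annotation table each. Per the submitters' processing notes, Bowtie2, MACS2 and HOMER were used with GRCm38/mm10, with no versions given. Peaks were called per library, and the annotation came from HOMER's annotatePeaks per the file headers. Each deposited peak has a score, a fold enrichment (a linear ratio whose background is not given in the sources used here) and a −log10 of p and of q, all the authors' own values. The deposited tables also give other fields, the distance to the start in bp and the nearest gene. Depth per library is not given in the sources used here.

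Python 3.11.15, numpy 2.4.6, pandas 2.3.3, scipy 1.17.1 and matplotlib 3.10.9 were used. Peaks sharing at least 1 bp were merged into regions, and ranks were by −log10 q within a list. Counts per library were compared by an exact two-sided permutation test over 6 labellings. Regions have no test and stand beside the same share over all regions or genes. Starts and promoters came from RefSeq, GRCm38.p6, where all 9 members matched in the gene table and 8 in the promoter table. The counting was tested on simulated lists.

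All members are accounted for. For each member and target the region of highest mean rank was named, if both libraries of a treatment held it, and likewise SMAD2/3 regions of both activin libraries. Up to 8 other lineage genes with such a region, and the 3 genes most like Neurod1 in peak numbers, were to be named, and some of these are not reported here. All other regions named were picked after their values were seen. Members and lists were chosen with earlier results of these data known. Alternatives were the distance limit, the q threshold, list length, the scale, ranking by fold, overlap, the gene assignment, the replicate block and leaving out each library. The labels name no batch.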

Additional observations from a re-analysis of the deposited data

How the results depend on the processing

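Of the alternative settings, 115 were counted as the same, 20 moved and 2 reversed. A difference in peak number counted as the same when its sign held, whatever its size. A count did so when it stayed within 1.5 times the main value. The 115 include SMAD2/3 results of 0 that stayed 0. Under the nearest-gene rule those settings had no SMAD2/3 peak at a member to act on, so their outcome was fixed. The 115 also include the differences with lists cut to the shortest. There the FOXL2 difference fell from 3.5 to 1 peak, and the H3K27ac difference stayed at −5. The lower number of H3K27ac peaks in activin (−5) reversed to 0.5 at a −log10 q of at least 5 and to 3.5 when peaks were assigned by location, whatever the nearest gene. By location the SMAD2/3 difference went from 0 to 6 peaks, and the SMAD2/3 regions at FOXL2 and H3K27ac went from 0 to 4 (an alternative chosen after seeing the data). With a limit of 50 kb, the FOXL2 activin-only count was 1, the FOXL2 vehicle-only count 0 and the H3K27ac vehicle-only count 1. At a −log10 q of at least 5, the vehicle-only count was 0 for FOXL2 and 0 for H3K27ac, H3K27ac in all 4 libraries was 1, and members with an acetylated start in vehicle were 0.

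Leaving out 1 library gave 3 to 5 FOXL2 activin-only regions (5 without vehicle replicate 1 or activin replicate 2), 2 to 4 vehicle-only (4 without activin replicate 1) and 24 to 27 in all libraries. FOXL2 regions ranked higher were 11 to 15 (15 without vehicle replicate 2) and lower 9 to 10. For H3K27ac it gave 0 to 1 activin-only (1 without either activin replicate), 3 to 5 vehicle-only (5 without vehicle replicate 2 or activin replicate 1), 3 to 5 in all libraries and 2 to 4 ranked lower (the highest of both without activin replicate 2). Members with an acetylated start in activin were 0 to 1 (1 without activin replicate 2). The peak differences ranged from 1 to 6 for FOXL2 and from −6 to −4 for H3K27ac. These counts have fewer libraries to satisfy, which by itself raises them.

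With the replicate block, the FOXL2 difference was 3.5 and the H3K27ac difference −5, each with an exact sign-flip p of 0.5, the smallest that 2 pairs can give, and the FOXL2 regions ranked higher were 12. Deviations of same-numbered libraries correlated at 0.132 for FOXL2 and −0.0281 for H3K27ac over regions. The labels do not say whether same-numbered libraries were prepared together, and 2 pairs cannot settle it. Unknown depth limits every count of peaks.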

Other observations

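Outside the nearest-gene rule, and picked after their values were seen, a pair of FOXL2 regions upstream of Pou1f1 and nearest to the gene model Gm23659 moved in opposite directions. The region at −71.0 kb from Pou1f1 (chr16:65448803-65450166) ranked 59.6 and 60.6 in vehicle and 95.8 and 92.7 in activin. The region at −74.3 kb (chr16:65445843-65446572) ranked 91.4 and 92.1 in vehicle and 82.8 and 78.7 in activin. The H3K27ac region at −88.2 kb (chr16:65430793-65433814) ranked 93.1 and 92.1 in vehicle and 74.4 and 68.0 in activin.

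Upstream of Pax7, the H3K27ac region at −79.1 kb (chr4:139911405-139912731), nearest to Gm1667, ranked 8.91 and 23.6 in vehicle and 78.2 and 65.1 in activin. A SMAD2/3 peak lay inside it in activin 1, with a rank of 1.86, and in no other library. Beyond Pomc, 2 H3K27ac regions at 95.5 and 96.7 kb, nearest to Efr3b, were activin-only, with ranks of 82.8 and 70.7 and of 74.1 and 80.6. They lay beside the activin-only SMAD2/3 region at 96.3 kb and an activin-only FOXL2 region that ranked 45.3 and 40.1. Over all regions near genes, 5.82% of H3K27ac, 54.1% of SMAD2/3 and 8.72% of FOXL2 regions were activin-only. Of the 5 shared H3K27ac regions in the Pomc window, 2 ranked higher and 2 lower in both activin libraries, against 26.5% and 30.5% of all. None of these differences was tested.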
